A study of Mus musculus with 2 samples.

Results

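Notch signalling was followed through 10 genes of the deposited RNA-seq table: the receptors Notch1, Notch2 and Notch3, the ligands Dll1, Dll3, Jag1 and Jag2, and the target genes Hes1, Hes5 and Hey1. They were picked by gene symbol as members of the pathway, and all 10 were among the 16803 genes of the table. RNA came from NE4C cells, a mouse line of neural stem cells established from the brain vesicles of embryos lacking p53. One library was made from normally cultured cells (control) and 1 from cells treated with homocysteine thiolactone (HTL), the reactive cyclic thioester of homocysteine, which modifies protein lysines. Neither the dose nor the duration of HTL is given for these libraries, and any solvent given to the control is not stated. Each condition had 1 library of the same line, so every interval and test below covers counting error between these 2 libraries and not the spread between cultures.

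Notch receptors sit in the cell membrane and are activated by Delta-like (Dll) and Jagged (Jag) ligands on neighbouring cells. Ligand binding lets a metalloprotease and then gamma-secretase cut the receptor, and the freed intracellular part joins the DNA-binding protein Rbpj and switches on repressor genes of the Hes and Hey families. In the embryonic neural tube this pathway is known for keeping neighbouring progenitors undifferentiated, because Hes proteins repress proneural genes and, through them, Dll1.

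The 10 genes did not move as a group. Notch1 and Dll1 were higher and Notch3 was lower in the HTL treatment library, whereas Notch2, Jag1, Jag2 and Hes1 differed by less than their counting intervals could resolve. Dll3 and Hey1 had higher values that rested on few reads, and Hes5 was near 0 in both libraries. A gene was called when its 2 read counts differed at an adjusted p of at most 0.001 in a two-sided exact binomial test over all 13442 genes with at least 10 reads, and its log2 ratio of scaled reads was at least 1 in size. Of the 10 genes, 9 had enough reads to be tested, 2 were called higher and 1 lower. By the same rule 10.8% of all genes tested were called, 2.81% higher and 7.98% lower. Past the log2 cutoff alone, whatever the p, were 4 members above and 1 below, beside 4.72% and 12.2% of all genes tested. The median log2 ratio of the 9 members was 0.11, that of all genes tested was -0.14, and 8 of the 9 members lay above the latter. With so few members these counts describe the list and no more.

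The promoter sequences of the 3 called genes and of Hes5, the only member with the Rbpj letters in its window, are shown so that the genes can be located and compared. Each sequence is the 250 bases before the RefSeq start (table build GRCm38.p6), on the gene's own strand from 5′ to 3′, and each was found once on its chromosome, without mismatch, in NCBIM37 (mm9). The windows are chr2:26359343-26359592 on the minus strand for Notch1, chr17:32303836-32304085 on the minus strand for Notch3, chr17:15513897-15514146 on the minus strand for the outer of 2 listed starts of Dll1, and chr4:154334782-154335031 on the plus strand for Hes5. Capitals mark GC boxes (GGGCGG on either strand, bound by Sp and Klf factors) in Notch1 and Notch3, proneural E-boxes (CAGNTG on either strand) in Dll1, and the Rbpj core (TGGGAA on either strand) in Hes5.
Notch1: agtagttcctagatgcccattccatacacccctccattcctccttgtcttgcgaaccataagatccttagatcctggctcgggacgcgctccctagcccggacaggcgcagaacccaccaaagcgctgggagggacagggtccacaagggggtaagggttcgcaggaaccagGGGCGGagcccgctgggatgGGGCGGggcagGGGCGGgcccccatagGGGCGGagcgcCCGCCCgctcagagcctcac
Notch3: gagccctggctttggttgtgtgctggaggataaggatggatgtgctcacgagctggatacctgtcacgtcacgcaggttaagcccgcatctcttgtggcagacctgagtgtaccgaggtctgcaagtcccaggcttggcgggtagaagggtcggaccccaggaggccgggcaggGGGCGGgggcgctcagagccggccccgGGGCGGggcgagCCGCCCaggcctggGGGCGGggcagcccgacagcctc
Dll1: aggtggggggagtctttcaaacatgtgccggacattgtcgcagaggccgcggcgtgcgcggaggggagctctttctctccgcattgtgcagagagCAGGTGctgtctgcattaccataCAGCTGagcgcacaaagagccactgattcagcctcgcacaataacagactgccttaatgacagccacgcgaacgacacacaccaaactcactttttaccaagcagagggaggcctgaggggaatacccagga
Hes5: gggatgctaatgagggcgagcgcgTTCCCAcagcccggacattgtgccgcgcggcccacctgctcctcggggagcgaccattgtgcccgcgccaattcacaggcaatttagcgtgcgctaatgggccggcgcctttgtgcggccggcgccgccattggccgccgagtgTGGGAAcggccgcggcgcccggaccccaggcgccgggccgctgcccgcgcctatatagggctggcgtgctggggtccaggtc

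The window of Notch1, the receptor with the higher value, held 5 GC boxes, and that of Notch3, the receptor with the lower value, held 4. The window of Notch2, which was not called, held 5, and 32.7% of all 32851 promoter windows of the table held at least 1. The window of the outer start of Dll1 held 2 proneural E-boxes and that of its inner start held 0. Dll3 held 2, and Jag1 and Hes5 held 1 each, beside 44.8% of all windows with at least 1. The Rbpj core occurred at 2 places in Hes5, 226 and 82 bases before the start, and in no other member window, beside 21.6% of all windows. Another motif searched, the class C site of Hes proteins (CACGNG on either strand), was in the windows of Notch2, Notch3, Jag1 and Dll1, beside 23.5% of all windows. No match of a motif overlapped a match of another motif in these windows. RefSeq windows were found for 8 of the 10 members; Hes1 and Hey1 were the others. A match says only that these letters are in the window.

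**Figure D1:**
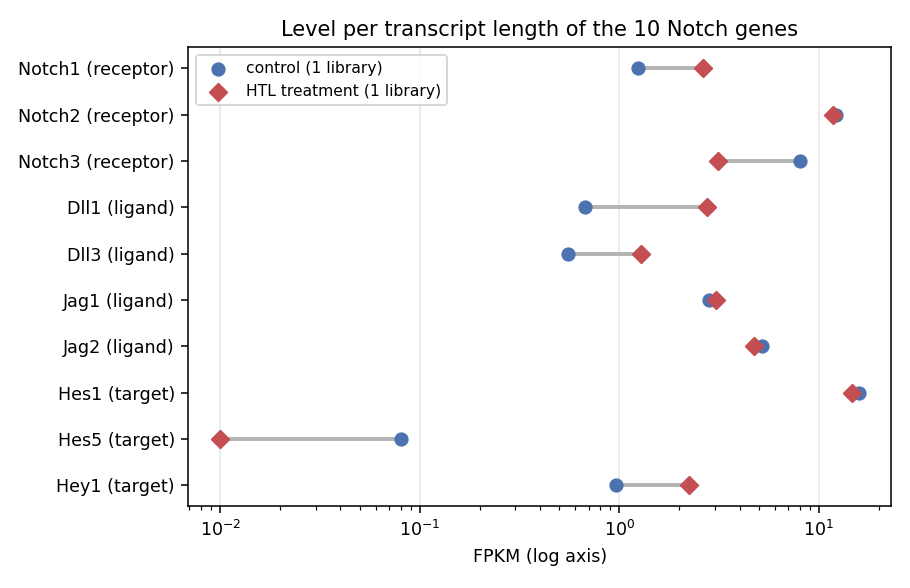
FPKM of the 10 Notch genes on a log axis, with a circle for the control library and a diamond for the HTL treatment library. Notch1, Dll1, Dll3 and Hey1 stand to the right and Notch3 to the left in the HTL treatment library, Notch2, Jag1, Jag2 and Hes1 nearly coincide, and the diamond of Hes5 is the lowest value the table uses for a gene with 0 reads.

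Levels of different genes were compared on FPKM, the deposited read density scaled to transcript length and library size. In the control library Hes1 was highest with 15.9 FPKM, followed by Notch2 with 12.1, Notch3 with 8.07, Jag2 with 5.20 and Jag1 with 2.82. Notch1, Hey1, Dll1 and Dll3 lay between 0.55 and 1.24 FPKM, and Hes5 was at 0.080. In the HTL treatment library Hes1 and Notch2 still led with 14.7 and 11.8 FPKM, and Jag2 followed with 4.75. The next 5 genes, from Notch3 with 3.13 FPKM through Jag1, Dll1 and Notch1 to Hey1 with 2.23 FPKM, lay so close together that their order cannot be told from 1 library. Dll3 was at 1.29 FPKM.

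Notch2 was the most abundant receptor in both libraries, and Notch1 and Notch3 below it drew closer to each other. Notch1 (gene ID 18128; NCBIM37 chromosome 2, 26313423 to 26372183, minus strand) is the receptor best known from neural progenitors. Control cells gave 124 reads and HTL-treated cells 231, which were 1.24 and 2.63 FPKM. The HTL treatment library was thus 2.11-fold higher on scaled reads, with a log2 ratio of 1.08 (95% interval 0.76 to 1.41) and an adjusted p of 3.43e-11 in the exact binomial test. This ratio lay above 95.9% of the genes tested. On log2(FPKM + 1) the difference was 0.70, and Notch1 was not called. Exons of Notch1 share 1068 bases with the long non-coding gene 0610009E02Rik and 414 with Gm13568, both on the opposite strand. Whether reads were counted by strand is not stated, so reads within the shared bases cannot be assigned to Notch1 or to these genes.

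Notch3 (gene ID 18131; chromosome 17, 32257765 to 32303825, minus strand), the receptor also known from vascular smooth muscle, went the other way. Its reads numbered 672 without and 230 with HTL, or 8.07 and 3.13 FPKM. It was 2.57-fold lower, with a log2 ratio of -1.36 (-1.58 to -1.14) and an adjusted p of 4.60e-38 in the exact binomial test. Of the genes tested 6.35% lay below this ratio. Exons of Notch3 share 488 bases with the opposite-strand non-coding gene Gm17276. Long transcripts as a class were lower in the HTL treatment library: the median log2 ratio was -0.38 among the 1344 tested genes with the longest transcripts (6190 bases or more), which hold all 3 receptors, and 0.14 among the 1345 with the shortest. Less the median of its length class the log2 ratio of Notch3 was -0.98, just short of the cutoff, and that of Notch1 was 1.46. The part of transcript length in these values was not tested further.

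Notch2 (gene ID 18129; chromosome 3, 97817461 to 97954290, plus strand) had 1339 and 1143 reads, the most of any member. Its 12.1 and 11.8 FPKM gave a log2 ratio of -0.043 (-0.16 to 0.072), the narrowest interval of the list. A difference beyond 0.16 in either direction on the log2 scale lay outside this interval, and the sign turned positive under other scalings. Less the median of its length class the log2 ratio of Notch2 was 0.33, outside this interval, so its direction depends on that choice.

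Because any scaling between the libraries cancels when 2 genes are set against each other, pairs within a role were compared by the odds ratio of their reads, with exact conditional 95% intervals and no p. Of 10 such pairs with enough reads, 8 had intervals that left out 0. The intervals are not corrected for the number of pairs, and the share among other pairs of genes was not computed. Notch1 exceeded Notch3 in its log2 difference between libraries by 2.44 (2.05 to 2.84) and Notch2 by 1.13 (0.78 to 1.47). Notch2 exceeded Notch3 by 1.32 (1.07 to 1.57). In FPKM the ratio of Notch1 to Notch3 was 0.154 without and 0.840 with HTL. Of the summed FPKM of the 3 receptors, Notch3 made up 37.6% without and 17.9% with HTL, Notch1 5.78% and 15.0%, and Notch2 56.6% and 67.1%. The sum itself was 21.4 and 17.5 FPKM.

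**Figure D2:**
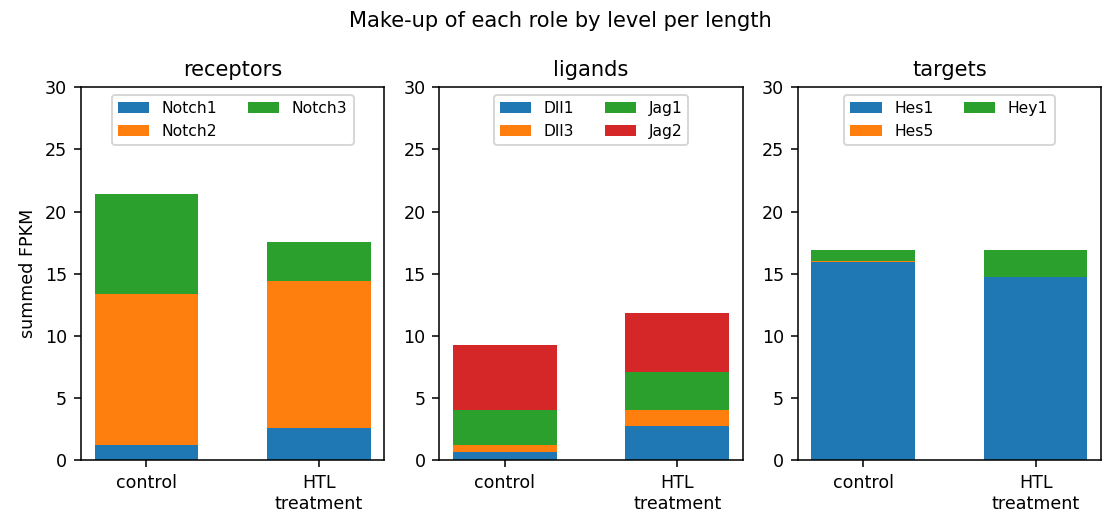
Summed FPKM of the receptors, the ligands and the targets in each library, with bars from 0 split by gene. The Notch3 segment shrank from 8.07 to 3.13 FPKM while Notch1 and Dll1 grew, and the Hes1 segment dominated the targets in both libraries.

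Among the ligands, Jag2 had the highest FPKM in both libraries, and Jag1 stood above Dll1 in the control library but close to it in the HTL treatment library. Dll1 (gene ID 13388; chromosome 17, 15504318 to 15513836, minus strand), the main activating ligand on newly committed neuronal precursors, had the largest log2 ratio of the list. Control cells gave 24 reads and HTL-treated cells gave 87, or 0.67 and 2.75 FPKM. This was a 4.05-fold higher value with a log2 ratio of 2.02 (1.38 to 2.76), an adjusted p of 6.83e-11 in the exact binomial test, and a place above 99.2% of the genes tested. Exons of Dll1 share 867 bases with the non-coding gene A930024N18Rik on the opposite strand, and its low control count makes the interval wide.

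Dll3 (gene ID 13389; chromosome 7, 29076673 to 29087257, minus strand), a Delta-like protein that stays mostly inside the cell and acts against Notch activation in the same cell, had 12 and 25 reads, or 0.55 and 1.29 FPKM. Its log2 ratio of 1.21 (0.20 to 2.37) passed the cutoff in size, but its adjusted p of 0.0251 in the exact binomial test did not, so it was not called. Dll1 and Dll3 could not be separated, with a difference of 0.79 (-0.54 to 2.08) between their log2 ratios.

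Jag1 (gene ID 16449; chromosome 2, 136907192 to 136942380, minus strand) had 162 and 154 reads, or 2.82 and 3.04 FPKM, and a log2 ratio of 0.11 (-0.22 to 0.44). Jag2 (gene ID 16450; chromosome 12, 114146801 to 114167706, minus strand) had 220 and 177 reads, or 5.20 and 4.75 FPKM, and a log2 ratio of -0.13 (-0.42 to 0.16). Neither Jagged gene was called, and both intervals hold 0. Dll1 exceeded Jag1 by 1.93 (1.18 to 2.72) and Jag2 by 2.17 (1.43 to 2.95) in log2 ratio. Dll3 less Jag1 was 1.13 (0.024 to 2.31) and Dll3 less Jag2 was 1.37 (0.28 to 2.54), with lower bounds near 0, while Jag1 and Jag2 differed by 0.24 (-0.20 to 0.68). Dll1 thus differed from both Jagged genes by more than counting error. Of the summed ligand FPKM, Dll1 made up 7.25% without and 23.2% with HTL, and Jag2 56.3% and 40.2%.

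**Figure D3:**
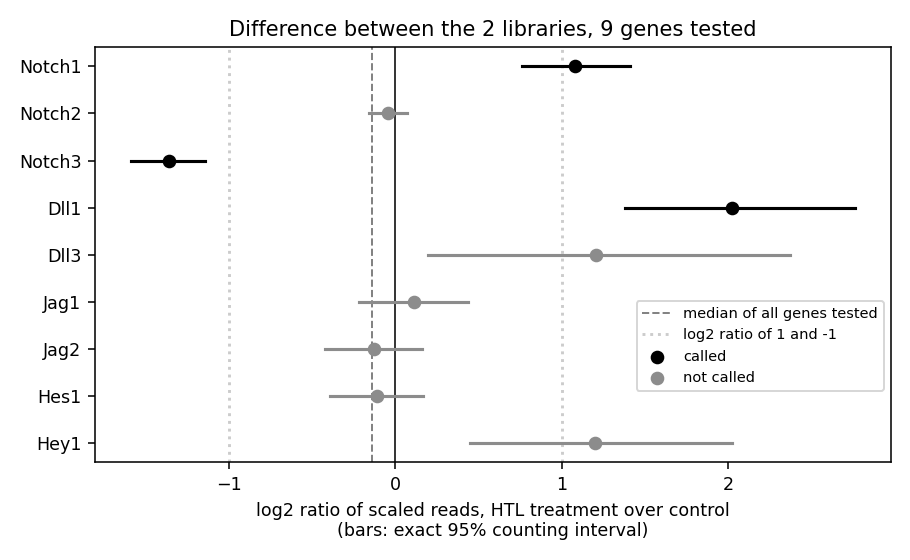
Log2 ratio of scaled reads, HTL treatment over control, for the 9 genes tested, with exact 95% counting intervals. Dark points are called genes; Dll1 at 2.02 and Notch1 at 1.08 lie to the right and Notch3 at -1.36 to the left, while the intervals of Notch2, Jag1, Jag2 and Hes1 cross 0.

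The target genes did not share the direction of Notch1 and Dll1 as a group. Hes1 (gene ID 15205; chromosome 16, 30064470 to 30067882, plus strand), the repressor that is a direct target of activated Notch and also answers to other signals, had 243 and 198 reads. Its level was 15.9 and 14.7 FPKM and its log2 ratio -0.11 (-0.39 to 0.17), so it was not called. Hey1 (gene ID 15213; chromosome 3, 8663362 to 8667039, minus strand), a related repressor, had 22 and 45 reads, or 0.96 and 2.23 FPKM. Its log2 ratio was 1.20 (0.45 to 2.02), with an adjusted p of 0.00213 in the exact binomial test, short of the cutoff. Under each of 3 other scalings between the libraries Hey1 was called. Hes1 lay below Hey1 by 1.33 on the log2 scale (-2.18 to -0.50 for Hes1 less Hey1).

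Hes5 (gene ID 15208; chromosome 4, 154335032 to 154336480, plus strand), in the embryonic brain the target that most closely follows Notch activity, had 1 read without and 0 reads with HTL. A count of 0 allows up to 3 reads, which at these depths was 0.29 CPM (read share times 1000000) for control and 0.33 CPM for HTL. Both values lay at or under this limit, so no fold is given, and a change was not detectable at this depth.

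**Figure D4:**
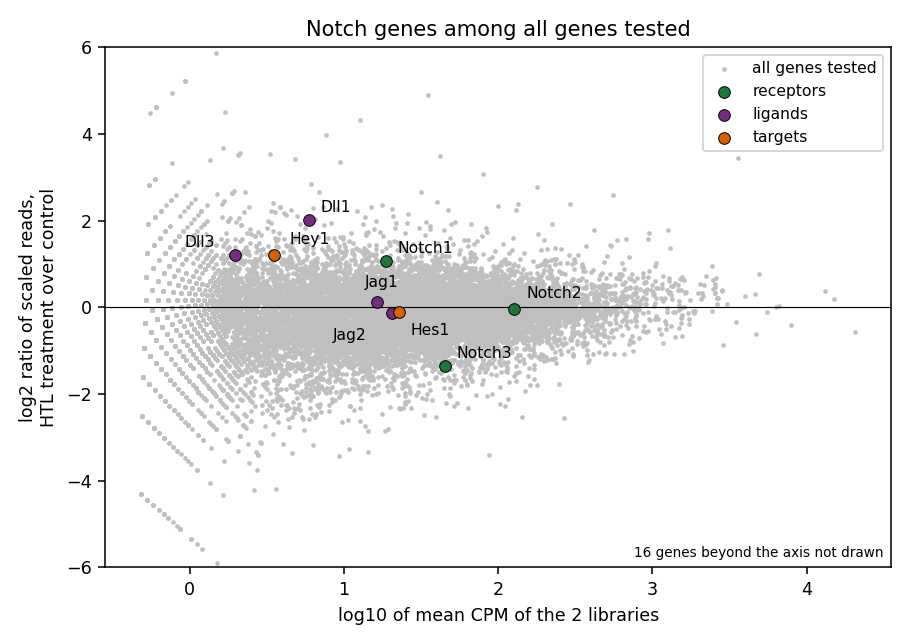
Log2 ratio against the log10 of mean CPM for all 13442 genes tested (grey) and the 9 tested members (coloured by role), with 16 genes beyond the axis limits left out. Dll1 stands at the upper edge of the cloud at its low abundance, Notch3 in the lower part, and Notch2, Jag1, Jag2 and Hes1 in the middle.

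The rest of the pathway was read from 9 lists of genes by role. Of 76 listed genes 68 were in the table and 58 had at least 10 reads. Among these, 3 were called higher and 2 lower, and their median log2 ratio was -0.078. Over all genes tested 2.81% were called higher and 7.98% lower, and the median was -0.14; whether the pathway genes differ from these was not tested. Dlk1, Hes2, Hes3, Heyl, Helt, Neurog1, Neurod4 and Olig2 were not analysed here.

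Of 6 genes for ligand endocytosis, which ligands need in order to activate a receptor, 1 was called. Mib2, an E3 ubiquitin ligase of the Mind bomb family, was read 81 times without and 240 times with HTL, giving a log2 ratio of 1.75 (1.38 to 2.13). Its relative Mib1, the ligase that Dll1 signalling in the mouse embryo depends on, had 464 and 256 reads, at a log2 ratio of -0.67 (-0.90 to -0.45), which was under the cutoff in size. The list had a median log2 ratio of 0.31.

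None of the 6 genes of receptor maturation and glycosylation and none of the 9 genes of receptor cleavage was called in the exact binomial test with the log2 cutoff. Pofut1, which puts the first fucose on Notch, had 274 and 143 reads, at a log2 ratio of -0.75 (-1.05 to -0.46). The protease gene Adam17 had 474 and 219 reads, at a log2 ratio of -0.93 (-1.17 to -0.69), while Adam10, the protease that makes the ligand-dependent cut, had 249 and 196 reads and one of -0.16 (-0.44 to 0.12). Medians were -0.15 for the maturation genes and 0.13 for the cleavage genes.

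The DNA-binding partner Rbpj had 1289 and 1221 reads, at a log2 ratio of 0.11 (-0.0068 to 0.22). Its activating complex, of which 9 genes were tested, had 0 called in the exact binomial test with the log2 cutoff, and their median was -0.32. Without the cutoff in size 7 of them passed the adjusted p, 2 above 0 (Maml1 and Snw1) and 5 below 0, beside 5193 of all 13442 genes tested, 1955 above and 3238 below. The acetyltransferase Kat2b had the largest ratio of this list in size, -0.91 (-1.30 to -0.54), with 187 and 87 reads.

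Of 12 corepressor genes 11 were tested, 1 was called higher and 1 lower. Tle3, a Groucho-type corepressor that Hes proteins recruit, had 2044 and 4170 reads, or 37.9 and 87.6 FPKM, and a log2 ratio of 1.21 (1.14 to 1.29). Ncor1, a nuclear corepressor, had 3488 and 1267 reads, or 40.4 and 17.0 FPKM, and a log2 ratio of -1.28 (-1.37 to -1.18). Its call was lost when ratios were taken less the median of the length class.

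Among 11 inhibitors and turnover genes, 10 were tested and 1 was called. Dtx3, of the Deltex family of E3 ligases, had 259 and 472 reads, at a log2 ratio of 1.05 (0.83 to 1.28). Nrarp, which activated Notch switches on and which limits it, had 44 and 36 reads, at a log2 ratio of -0.10 (-0.78 to 0.56). Of the other Hes and Hey genes 3 were tested, and Bhlhe40, a related repressor that also answers to hypoxia, was called with 187 and 70 reads, at a log2 ratio of -1.23 (-1.65 to -0.83). On log2(FPKM + 1) neither Dtx3 nor Bhlhe40 was called. Hes6 had 68 and 76 reads, Hes7 had 19 and 7, and Hey2 had 3 and 0.

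Proneural factors are genes that Hes proteins repress and that can switch on Dll1. Their summed level over the 7 genes in the table was 9.95 CPM without and 6.15 CPM with HTL. Neurog2 had 0 and 1, and Neurod1 had 7 and 1. Most of this sum was Insm1, which had 80 and 48 reads, at a log2 ratio of -0.55 (-1.10 to -0.017), and it was not called. Notch4 and Dll4, the receptor and the ligand of endothelial cells, had 18 and 6 reads and 2 and 5 reads.

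**Figure D5:**
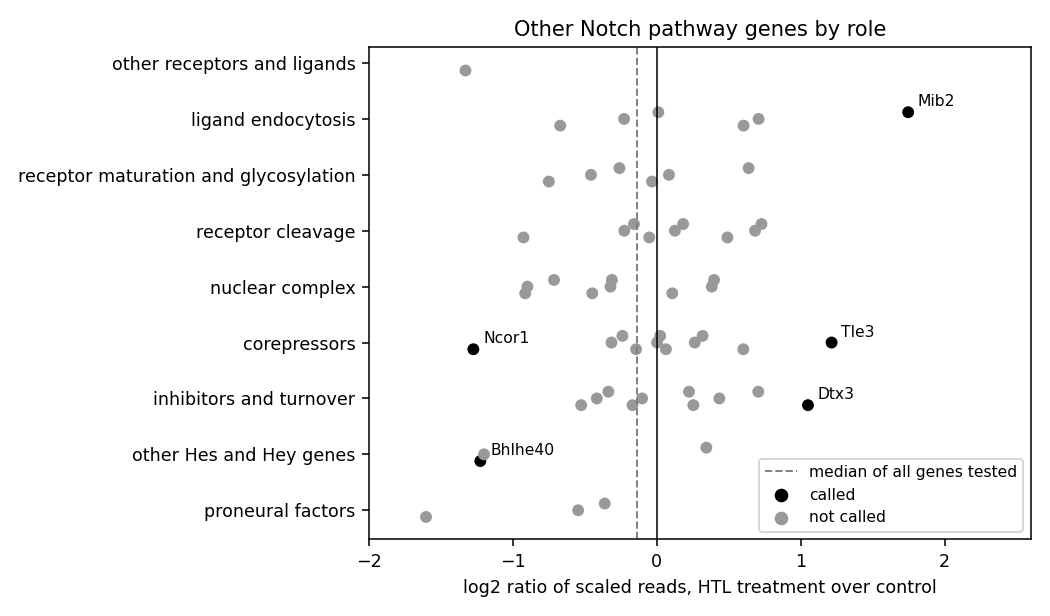
Log2 ratio of scaled reads, HTL treatment over control, for the 58 tested genes of the 9 pathway lists, 1 point per gene, with called genes dark and named. Mib2, Tle3 and Dtx3 lie to the right, Ncor1 and Bhlhe40 to the left, and most of the other points lie between -1 and 1, with Notch4 at -1.33 and Hes7 at -1.20 among those beyond.

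The libraries held 10350646 control and 9102057 HTL treatment reads after rounding. Neural stem and progenitor markers were expressed, with a summed level over 10 genes of 545.5 CPM without and 403.5 CPM with HTL. Of these 9 were tested and 4 called lower (Sox1, Sox2, Sox3 and Vim), beside 7.98% of all genes tested. Under each of the 3 other scalings 3 of them were called lower, without Vim. Nes (1617 and 1365 reads), Msi1 (617 and 555), Pax6 (69 and 66), Sox9 (21 and 16) and Prom1 (443 and 555) were not called. The 9 neuronal markers summed to 142.6 and 150.6 CPM, and 1, Dcx (88 and 29 reads), was called lower. Tubb3 (296 and 396 reads) and Stmn2 (309 and 403) had higher values and Elavl3 (542 and 355), Map2 (114 and 66) and Elavl4 (18 and 2) lower ones, and the median log2 ratio of the list was -0.42. Of the 3 astrocyte markers in the table Aldh1l1 (21 and 56 reads) was called higher, Slc1a3 (799 and 703) was not, and Gfap had 2 and 0 reads. The oligodendrocyte list had 0 called genes and summed to 23.1 and 24.1 CPM, mostly Mbp (182 and 186 reads), with Sox10 at 0 and 2 reads. The mesenchymal list had 0 called genes and summed to 24.8 and 30.4 CPM, mostly Twist1 (217 and 197 reads). Its other genes Col1a1 and Col1a2 (12 and 25 reads each) and Acta2 (16 and 30) had higher values on few reads. Endothelial markers summed to 6.09 and 4.94 CPM and blood cell markers to 2.42 and 1.54 CPM, with 0 called. The part of these differences in the values of the Notch genes was not tested. In a culture sequenced in bulk, fewer cells of a type and less RNA per cell cannot be told apart.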

How the data were processed

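Total RNA of NE4C cells, 1 control and 1 HTL treatment library grouped by sample title, was sequenced on a BGISEQ-500. Per the study's methods, reads were mapped to the mouse genome and genes and counted with RSEM. The submitters' processing notes list mm9. The mapper, versions and annotation release are not given in the sources used here. The authors deposited estimated counts (not normalized), FPKM (per the authors' scaling for length and depth, lowest value 0.01) and transcript length in bases, here called another measure. Columns with the authors' own log2 ratio, p-value and FDR were not used.

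Estimated counts, which can split reads among similar genes, were rounded to whole numbers. The 13442 of 16803 genes whose reads summed to 10 or more were tested. The two-sided exact binomial test compared reads with library totals, with Benjamini-Hochberg adjustment over all of them; cutoffs follow the study's methods. A prior of 0.5 read entered each log2 ratio. Intervals are exact Clopper-Pearson, or exact conditional for pairs of genes. The quasi-likelihood test of edgeR needs replicates and was replaced. No molecular identifiers were used, so reads may repeat a molecule, and intervals and floors cover counting error only.

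Members, lists and tests were chosen with earlier results of these data known, the values of Dll1 and Notch1 among them, and the motifs after values had been seen. All members were named, and from each pathway list the called genes or, with none called, the gene with the largest ratio in size among those with at least 50 reads. Other pathway genes were added beside them after their values were seen. Alternatives were edgeR 4.0.16 TMM and upper quartile, DESeq2 1.42.0 size factors, edgeR's exact test with an assumed coefficient of variation of 0.1, 0.2 or 0.4, other filters, cutoffs and added values, and centring on length class. Coordinates are from GENCODE M1 (NCBIM37). Tools were R 4.3.3, Python 3.11.15 and scipy 1.17.1. Scripts were tested on simulated data. Some genes of the lists are counted but not reported here by name.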

Additional observations from a re-analysis of the deposited data

How the results depend on the processing

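No paired analysis was possible because neither condition had a replicate, and leaving a library out was therefore not possible either. The alternatives were planned, except the counts over the table's own Notch term and the progenitor markers, chosen after the data were seen.

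The scaling moved all log2 ratios together, by 0.13 (TMM), 0.14 (median of ratios) or 0.093 (upper quartile). With 553 higher and 798 lower calls under TMM the split of all calls was nearer to even than 378 and 1072. Under all 3 scalings 4 members were called, with Hey1 added at log2 ratios of 1.33, 1.33 and 1.29. Values near 0 changed sign, by the size of that shift: Notch2 to 0.087, 0.094 and 0.050, and, under TMM and the median of ratios, Jag2 to 0.0019 and 0.0082 and Hes1 to 0.020 and 0.026. Less the median of the length class, Notch2 was 0.33 and Jag2 0.075, and Notch3 lost its call. On FPKM + 1 Notch1 lost its call, at 0.70, because the added value shrinks ratios of low genes.

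Of the 1450 genes, 3 members and 5 pathway genes called, an assumed coefficient of variation of 0.2 left 120, 0 and 0, and one of 0.4 left 6, 0 and 0. If cultures varied by 0.2 or 0.4, no member would thus meet the rule. At 0.2 and 0.4 that test made no calls on simulated data either, but fewer genes were set to change there than were called here. The error between cultures was not measured, so which assumed value holds is not known. With 0.1 the 3 members and 5 pathway genes stayed called. On FPKM + 1 there were 816 genes and 3 pathway genes (Mib2, Ncor1 and Tle3). Without the p cutoff there were 2280 genes, 5 members and 8 pathway genes, at 1.5-fold 3164 genes and 16 pathway genes, and without a log2 cutoff 5193 and 27, as those rules admit more genes. Dll1 stayed above 0 and Notch3 below 0 under the 7 alternatives that can change a log2 ratio, from 1.17 to 2.19 and from -1.37 to -0.98.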

Other observations

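The deposited table itself annotates 41 genes to the Notch signaling pathway term, many of which regulate the pathway or are regulated by it elsewhere. This list was chosen after the data were seen. Of the 33 genes tested 3 were called higher and 3 lower, with a median log2 ratio of 0.084. Over all genes tested 2.81% were called higher and 7.98% lower, with a median of -0.14. Besides Dll1 and Notch1, Gata2, a zinc finger transcription factor, was called higher with 22 reads without and 75 with HTL, its log2 ratio being 1.93 (95% interval 1.25 to 2.71). Eya1, a transcriptional coactivator and phosphatase, was called lower with 778 and 148 reads, its log2 ratio being -2.21 (-2.47 to -1.95). The progenitor factor Sox2 had 894 and 285 reads (-1.46, -1.66 to -1.27). The receptor tyrosine kinase gene Kit had 264 and 113 reads (-1.04, -1.37 to -0.72). Under each of the 3 other scalings Hey1 and Nfkbia were called as well and Kit was not, which made 7 genes, 5 higher and 2 lower.

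Among the term genes that were not called, picked after their values were seen, were Chac1 and Stat3. Chac1, which blocks maturation of Notch1 at the furin site, had 267 and 243 reads, at a log2 ratio of 0.049 (-0.21 to 0.31). Stat3, a transcription factor, had 198 and 295 reads, at a log2 ratio of 0.76 (0.50 to 1.03), under the cutoff in size.

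By the distance between pairs of log2(CPM + 0.5) values over the 2 libraries, the genes nearest to Dll1 were Icam1 (23 and 84 reads), Myo6 (25 and 80) and H2-D1 (26 and 96). Nearest to Notch3 were Rassf4 (651 and 219), Zeb2 (661 and 248) and Zgrf1 (618 and 229). With 2 libraries this likeness is no more than a similar level and ratio.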
